A study of Homo sapiens with 12 samples.

Results

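RNA of PC3 cells given silver nanoparticles and DOC together (COM) was compared with RNA of PC3 cells given PBS (BLANK), over every gene of the deposited table. PC3 is a human prostate cancer line grown from a bone metastasis, and it lacks a working p53 protein. The 2 groups hold 3 libraries each, 6 of the 12 libraries of the series. The other 6 are 3 libraries of cells given silver nanoparticles alone (AgNPs) and 3 of cells given DOC alone. DOC is not spelled out in the labels, which also give neither the amount of each agent, nor its duration, nor a batch. Nothing in them ties the libraries of a group to separate cultures, so the p-values measure the spread among these libraries, which may be technical. Of 43613 genes in the table, 19986 passed a filter on low counts and were tested, and a gene is called changed here at an adjusted p below 0.05 (edgeR quasi-likelihood test, Benjamini-Hochberg over all genes tested, two-sided). Levels are CPM, the counts relative to the library's total, scaled with edgeR's TMM factors, and each log2 fold change carries the standard error that edgeR's fit gives it (n = 3 libraries in each group).

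Silver ions bind to thiol groups and to zinc sites in proteins. Cells meet such metals with metallothioneins, small cysteine-rich proteins switched on by the zinc sensor MTF1, and meet oxidants with genes switched on by NRF2, the product of NFE2L2, which is otherwise held back by KEAP1. Shortage of amino acids, misfolded protein or lack of heme slows protein synthesis and raises the transcription factor ATF4, which drives amino acid supply and, when the stress lasts, the partner factors DDIT3 and ATF3. Dividing cells keep a further program that E2F factors open for DNA replication and that the DREAM and MuvB complexes time for mitosis.

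The combined treatment changed 9917 of 19986 genes (49.6% of those tested), 5024 higher (25.1%) and 4893 lower (24.5%). Which side held more calls depended on the setting, with 3906 higher and 4481 lower with DESeq2. The median absolute log2 change of the called genes was 0.40. The larger changes lay on one side. At least 2-fold higher were 1113 genes (5.57% of those tested) and at least 2-fold lower 150 (0.751%). At least 4-fold higher were 223 genes, at least 8-fold 80, at least 16-fold 31 and at least 32-fold 14. Protein-coding genes made up 545 of the 1113 and 69 of the 150, a smaller part than their 13057 of the 19986 tested. Genes without a RefSeq symbol (3174 tested) made up 273 and 47, and other genes with a symbol (3755 tested) 295 and 34. Of the protein-coding genes tested 25.4% were called higher and 33.5% lower. The CPM of the 3 COM and the 3 BLANK libraries did not overlap in 11352 genes (56.8%).

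**Figure D1:**
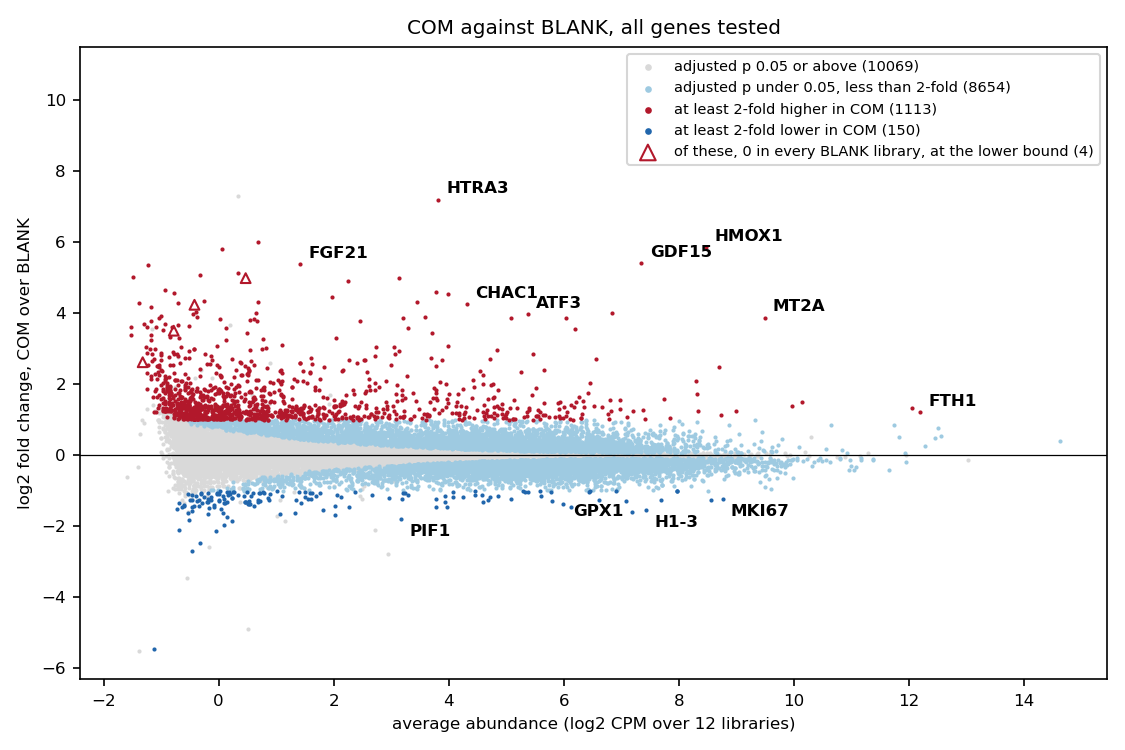
Log2 fold change of COM over BLANK (vertical axis) against the average abundance in log2 CPM over all 12 libraries (horizontal axis), 1 point per gene tested, with genes at least 2-fold higher in red (1113) and at least 2-fold lower in blue (150). The 4 open triangles are genes with no count in any BLANK library, drawn at the lower bound of their fold change; the named rises reach further from 0 than the named falls.

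Depth, RNA class and nuclear RNA moved with the group. Summed counts were 10996446 to 11069928 in COM libraries and 22573481 to 22769479 in BLANK libraries. The share of counts on RefSeq transcripts was 83.8 ± 0.150% in COM and 86.6 ± 0.365% in BLANK (SD, n = 3 each). Genes without a RefSeq symbol had a median log2 change of 0.20, other non-coding genes with a symbol 0.18, and protein-coding genes -0.03, against 0.03 over all genes tested. The nuclear-retained RNAs NEAT1, MALAT1 and KCNQ1OT1, with MEG3, summed to 13900 to 14400 CPM in COM and 7700 to 7950 CPM in BLANK. With counts thinned to the shallowest library 8961 genes were called. With RefSeq transcripts only, 714 genes were at least 2-fold higher and 98 lower, and with limma-trend on log2(FPKM + 1), a scale that shrinks low genes, 253 and 34. The part of RNA class in the changes below was not tested.

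The gene of heme breakdown that metals induce rose strongly, and most other genes of heme and iron rose less. HMOX1, the oxygenase that breaks down heme and is induced by metals and oxidants (gene 3162, chromosome 22, 35381096 to 35394207 on GRCh38), was at 834, 875 and 856 CPM in COM libraries and at 14.5, 15.3 and 14 CPM in BLANK libraries. The lowest COM library lay far above the highest BLANK library, and the gene rose 58.5-fold (log2 5.87 ± 0.04, adjusted p = 5.14e-46). Of 9 genes of heme breakdown and iron 6 rose, 2 fell and 1 did not pass, with a median log2 change of 0.98. FTH1, the heavy chain of the iron store ferritin, rose 2.31-fold, to 6806 ± 69.2 CPM in COM, against 2945 ± 56.7 CPM in BLANK. SLC48A1, which exports heme from lysosomes, rose by 1.23 ± 0.05 on the log2 scale and FECH, which inserts iron into heme, by 0.98 ± 0.04. The 2 that fell were HMOX2, the constitutive heme oxygenase (-0.33), and the biliverdin reductase BLVRA (-0.19), both named after their values were seen. Only 1 gene of the list was called lower with DESeq2, thinned counts or RefSeq transcripts, or without BLANK replicate 2, COM replicate 1 or COM replicate 3.

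Of 4 tested genes of the metallothionein and zinc export list 3 rose and 1 did not pass (median 2.76). MT2A (gene 4502, chromosome 16, 56608584 to 56609497), the most abundant metallothionein here, had 1337, 1443 and 1459 CPM in COM libraries and 107, 89.5 and 91.6 CPM in BLANK libraries, a 14.7-fold rise (log2 3.88 ± 0.07, adjusted p = 1.37e-11). Its neighbour MT1X rose 16-fold, with 233, 246 and 252 CPM in COM and 16.7, 14 and 14.9 CPM in BLANK. Both sit far apart between the groups, and both are uncertain in how reads were split among their close paralogs. SLC30A1, which exports zinc, rose 3.12-fold, while SLC30A10, a manganese exporter in the same family, was at 0.30 ± 0.26 (adjusted p = 0.348). Per length, MT2A averaged 3852 FPKM in COM and 264 FPKM in BLANK, and FTH1 5946 FPKM in COM and 2565 FPKM in BLANK.

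The promoters of both metallothioneins are printed because they show the metal response element core that MTF1 binds, here TGCGCNC or TGCACNC on either strand, repeated along a short stretch. They are RefSeq sequence on GRCh38.p14, from 250 bases before the start to 50 after it, with each match in capitals. MT2A holds 8 matches and MT1X 4, and 29.3% of all 27305 promoters in that table hold at least 1.
MT2A (chr16:56608334-56608633, plus strand): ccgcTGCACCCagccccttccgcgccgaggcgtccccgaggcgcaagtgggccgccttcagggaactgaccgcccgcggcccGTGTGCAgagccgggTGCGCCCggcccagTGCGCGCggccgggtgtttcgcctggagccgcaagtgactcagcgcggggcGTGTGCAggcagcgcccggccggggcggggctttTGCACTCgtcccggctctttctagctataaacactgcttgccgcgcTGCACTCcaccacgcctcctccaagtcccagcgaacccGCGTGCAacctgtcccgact
MT1X (chr16:56682220-56682519, plus strand): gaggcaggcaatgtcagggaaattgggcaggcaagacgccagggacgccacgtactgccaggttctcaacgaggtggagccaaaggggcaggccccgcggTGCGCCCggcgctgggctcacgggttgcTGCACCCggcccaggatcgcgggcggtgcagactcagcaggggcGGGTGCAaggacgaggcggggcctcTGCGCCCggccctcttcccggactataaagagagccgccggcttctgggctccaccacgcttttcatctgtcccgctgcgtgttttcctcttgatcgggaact

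Most genes of thiol chemistry rose, and 3 fell. Of 16 genes of glutathione and cystine 12 rose, 3 fell and 1 did not pass (median 0.76, against 0.03 over all genes tested). SLC7A11, which imports cystine, had 546, 530 and 546 CPM in COM libraries and 132, 126 and 123 CPM in BLANK libraries, 4.26-fold higher. GCLM, the modifier subunit of the enzyme that starts glutathione synthesis, rose 4.12-fold, to 164 ± 6.07 CPM in COM, against 39.8 ± 3.25 CPM in BLANK. CHAC1, which degrades glutathione, rose more than either, 19.2-fold, with 63.1, 59.0 and 54.1 CPM in COM and 3.73, 2.43 and 3.01 CPM in BLANK. GPX1, the selenium peroxidase that removes hydrogen peroxide (gene 2876, chromosome 3, 49357176 to 49358353), had 69.9, 72.2 and 72.1 CPM in COM libraries and 213, 213 and 216 CPM in BLANK libraries. It was 3.0-fold lower (log2 -1.58 ± 0.04, adjusted p = 1.76e-29), with libraries of each group within a few CPM of each other. The other 2 that fell were the selenium peroxidase GPX4 (-0.41) and the conjugating enzyme GSTP1 (-0.09), named after their values were seen.

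The intestinal-type peroxidase GPX2 went the other way from GPX1. It had no count in any BLANK library and 26, 33 and 24 counts in COM libraries, at 2.51 CPM. Against a floor of 3 counts per BLANK library, 0.132 CPM, that is at least 18.9-fold higher. The list's median does not depend on it, since GPX2 stays above the median at that bound. The same floor puts CYP4F11, a fatty acid hydroxylase with 42, 38 and 59 counts in COM, at least 31.8-fold higher, and its relative CYP4F3, with 20, 22 and 8 counts, at least 11.4-fold higher. Only 4 called genes had no count in any BLANK library, these 3 and 1 without a symbol, and they were named after their values were seen.

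Reducing power and quinone genes also rose. Of 14 thioredoxin and NADPH genes 9 rose, 2 fell and 3 did not pass (median 0.35). TXNRD1, thioredoxin reductase (chromosome 12, 104215779 to 104350307), had 1500, 1480 and 1514 CPM in COM libraries and 545, 595 and 564 CPM in BLANK libraries, 2.64-fold higher. SRXN1, which restores overoxidised peroxiredoxins, rose 2.58-fold. PGD, which makes NADPH in the pentose phosphate pathway, rose by 0.86 ± 0.04 on the log2 scale. The 2 that fell, named after their values were seen, were the peroxiredoxins PRDX3 (-0.26) and PRDX2 (-0.16).

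The list of NQO1, OSGIN1 and aldo-keto reductases had 15 of 16 genes higher, 0 lower and 1 not passing, with a median log2 change of 1.59. DESeq2 also called none lower, and the fit with no filter on low counts called 1. OSGIN1, an oxidative stress response gene, had 90.5, 88.7 and 88.3 CPM in COM and 6.02, 6.63 and 5.71 CPM in BLANK, 14.6-fold higher. AKR1B10 and AKR1C1, which reduce reactive aldehydes and ketones, rose 20.1-fold and 14.6-fold; AKR1C1 is uncertain because of its paralogs. TRIM16L rose 7.20-fold, ABHD4 5.06-fold and NQO1, a quinone reductase, 2.36-fold. The transcripts of the regulators moved less. NFE2L2 rose by 0.77 and KEAP1 was at -0.05 (adjusted p = 0.369), both named after their values were seen. The promoter of TXNRD1 is shown with its 2 matches to the antioxidant response element core TGACNNNGC on either strand, in capitals; 13.6% of all promoters hold a match.
TXNRD1 (chr12:104215529-104215828, plus strand): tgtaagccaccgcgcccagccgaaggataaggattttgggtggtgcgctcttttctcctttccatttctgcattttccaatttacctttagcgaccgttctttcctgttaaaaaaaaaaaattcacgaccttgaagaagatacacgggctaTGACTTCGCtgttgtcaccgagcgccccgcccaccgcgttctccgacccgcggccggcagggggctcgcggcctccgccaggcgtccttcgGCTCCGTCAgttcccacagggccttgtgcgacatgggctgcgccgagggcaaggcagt

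Nearly all genes of the list of ATF4 and its partner factors rose. Of 16 ATF4 and partner factor genes 15 rose, 1 fell and none failed to pass (median 1.71). ATF3 (chromosome 1, 212565407 to 212620777) had 108, 114 and 112 CPM in COM libraries and 7.06, 7.34 and 6.91 CPM in BLANK libraries, a 15.7-fold rise (log2 3.97 ± 0.06, adjusted p = 1.13e-34). SESN2 and DDIT4, inhibitors of the growth kinase mTORC1, rose 14.7-fold and 11.8-fold. PPP1R15A, a phosphatase subunit that lets translation restart, rose 6.62-fold and DDIT3, which encodes the factor CHOP, 5.74-fold. The gene that fell, EIF2AK4 (-0.26), encodes GCN2, a kinase that senses uncharged tRNA; it was named after its value was seen.

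Genes of amino acid supply also rose. Of 22 genes of amino acid synthesis, uptake and tRNA charging 20 rose and 2 fell (median 0.57). ASNS, asparagine synthetase, rose 2.97-fold, to 217, 207 and 217 CPM in COM, against 70.4, 75.0 and 70.0 CPM in BLANK. The neutral amino acid carrier SLC1A4 rose 3.83-fold, SLC38A2 2.0-fold and the glycyl-tRNA synthetase GARS1 1.62-fold. The 2 that fell, named after their values were seen, were ALDH18A1, which starts proline synthesis (-0.40), and PSPH, the last enzyme of serine synthesis (-0.16). Without BLANK replicate 2 or COM replicate 3 only 1 gene was called lower. For CHAC1 and ASNS the promoters carry the element that ATF4 pairs bind, TGATGNAA on either strand, in capitals below; 3.67% of all promoters hold one.
CHAC1 (chr15:40953221-40953520, plus strand): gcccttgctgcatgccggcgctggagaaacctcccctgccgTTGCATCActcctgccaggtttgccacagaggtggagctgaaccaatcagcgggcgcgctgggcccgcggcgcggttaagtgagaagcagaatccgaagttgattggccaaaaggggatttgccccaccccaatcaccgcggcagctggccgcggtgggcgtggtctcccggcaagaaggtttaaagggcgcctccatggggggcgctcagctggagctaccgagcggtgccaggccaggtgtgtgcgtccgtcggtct
ASNS (chr7:97872359-97872658, minus strand): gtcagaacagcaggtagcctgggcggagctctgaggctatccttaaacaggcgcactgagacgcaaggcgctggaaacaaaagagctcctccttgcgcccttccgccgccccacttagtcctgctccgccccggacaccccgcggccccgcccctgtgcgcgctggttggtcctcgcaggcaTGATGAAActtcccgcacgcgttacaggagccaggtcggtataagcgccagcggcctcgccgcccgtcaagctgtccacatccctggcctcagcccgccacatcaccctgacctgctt

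Every tested gene of the secreted stress hormone list rose, 7 of 7, with a median log2 change of 3.06. GDF15, a cytokine that acts on the hindbrain to curb appetite (gene 9518, chromosome 19, 18386158 to 18389176), had 411, 401 and 399 CPM in COM libraries and 9.84, 9.73 and 8.72 CPM in BLANK libraries, 42.8-fold higher (log2 5.42 ± 0.05, adjusted p = 1.61e-42). FGF21, a metabolic hormone usually made by liver, had 8.75, 6.79 and 9.65 CPM in COM and 0.135, 0.265 and 0.177 CPM in BLANK. Its BLANK level lies at or near the floor of 3 counts, so the size of its rise (log2 5.39 ± 0.26) is poorly fixed. INHBE, an inhibin subunit made by liver, rose by 4.59 ± 0.14, the lipase inhibitor ANGPTL4 by 2.0 ± 0.08, the calcium hormone STC2 by 1.6 ± 0.03 and the angiogenic factor VEGFA by 1.54 ± 0.04.

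**Figure D2:**
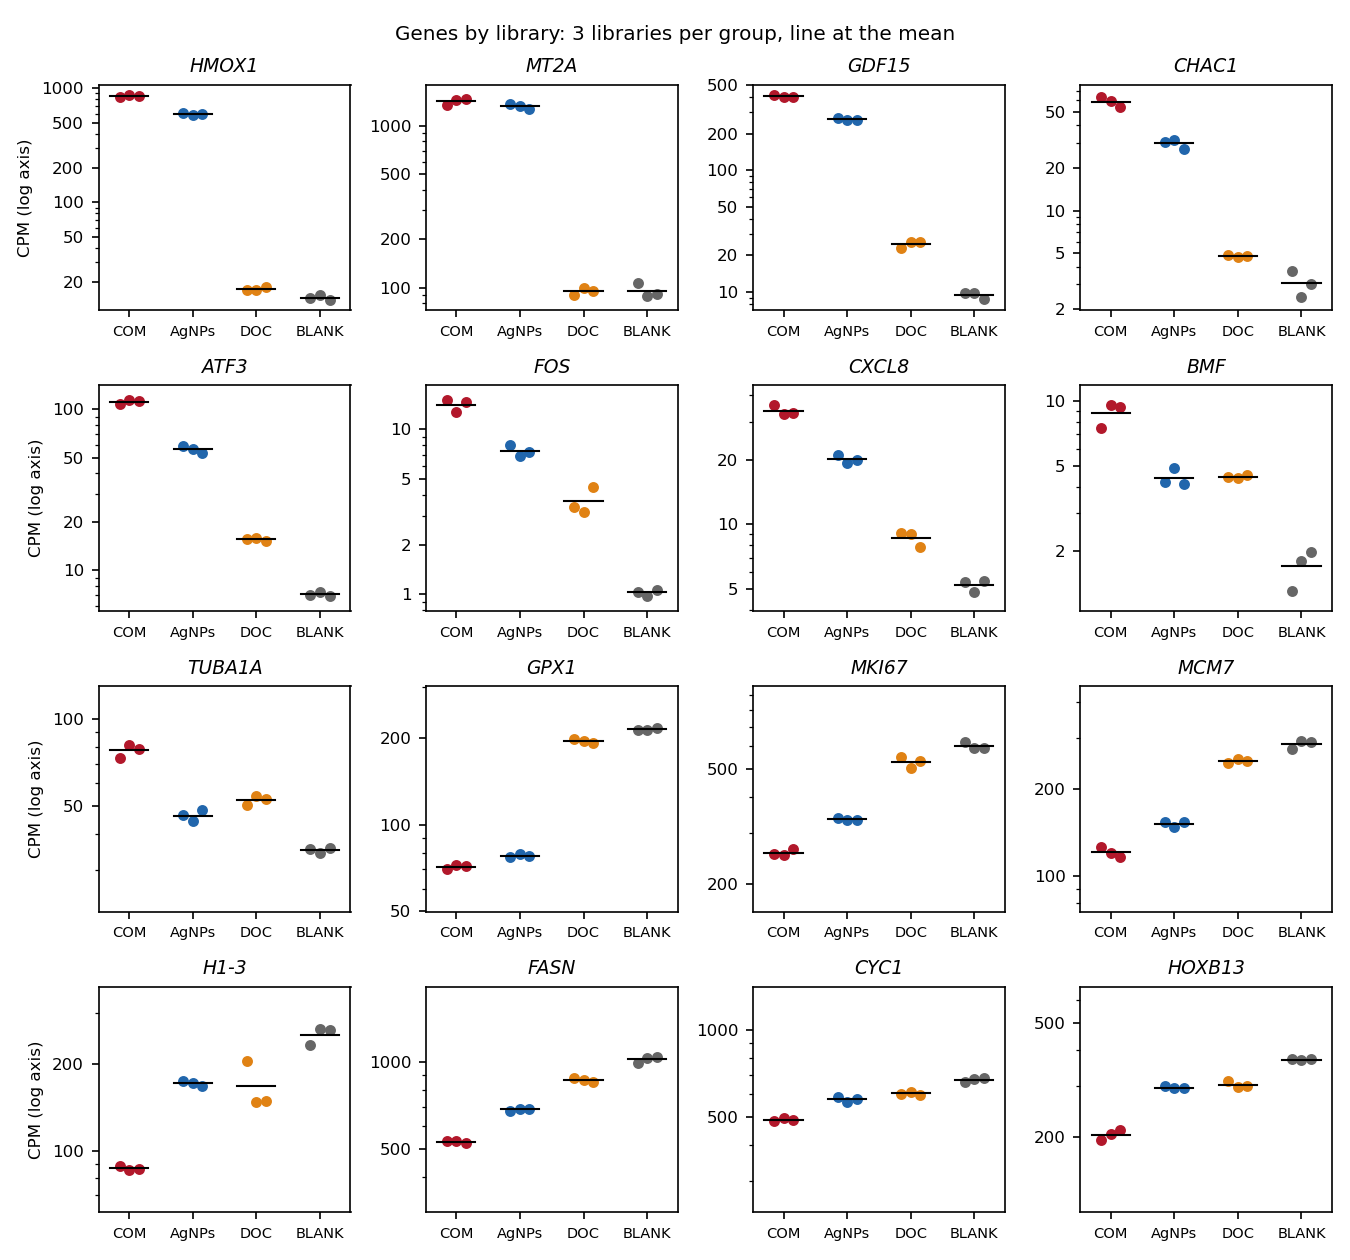
CPM on a log axis for 16 genes, 1 panel per gene, with 3 libraries per group as points and a line at each mean; groups run COM, AgNPs, DOC and BLANK from left to right. COM libraries are the highest of the 4 groups in the panels of HMOX1, GDF15, CHAC1, ATF3, FOS, CXCL8, BMF and TUBA1A, overlap AgNPs libraries for MT2A, and are the lowest for GPX1, MKI67, MCM7, H1-3, FASN, CYC1 and HOXB13.

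Genes of protein folding split. In the cytosolic heat shock list 10 of 19 genes rose (52.6%), 6 fell (31.6%) and 3 did not pass (median 0.24). HSPA6, an HSP70 form found almost only under proteotoxic stress, had 12.4, 9.69 and 10.4 CPM in COM and 1.35, 2.17 and 1.51 CPM in BLANK, 6.45-fold higher. HSPB8, a small heat shock protein, rose 2.50-fold and DNAJB1, an HSP70 cofactor, 2.06-fold. HSPA1A, uncertain because of its twin HSPA1B, rose 1.44-fold. DNAJB4 rose by 0.82 ± 0.06 but has 38.3% of its counts on RefSeq transcripts, and with those only it was at 1.63. Of 20 endoplasmic reticulum chaperones 6 rose, 12 fell and 2 did not pass (median -0.10). That is 30.0% higher, near the 25.1% over all genes tested, and 60.0% lower, against 24.5%. Over protein-coding genes 25.4% were higher and 33.5% lower. DNAJB9 and HERPUD1, of the unfolded protein response and of degradation, rose 3.49-fold and 2.67-fold and the factor XBP1 1.69-fold, while HSP90B1, the major folding chaperone of that compartment, was 1.33-fold lower.

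Autophagy genes mostly rose and proteasome genes did not move one way. Of 29 autophagy and lysosome genes 21 rose, 2 fell and 6 did not pass (median 0.42). Only 1 was called lower with RefSeq transcripts or limma-trend, or without BLANK replicate 1, COM replicate 1 or COM replicate 2. GABARAPL1, which coats autophagosomes, rose 8.43-fold. SQSTM1, a cargo receptor that is also a target of NRF2, rose to 526, 540 and 544 CPM in COM, against 156, 164 and 168 CPM in BLANK (3.31-fold). The kinase ULK1 rose 2.76-fold and MAP1LC3B, the gene of the LC3B protein, 2.23-fold. Of 30 proteasome genes 10 rose, 6 fell and 14 did not pass (median 0.03). These small shifts depended on the processing, with 3 higher and 11 lower when no filter on low counts was used. NFE2L1, the factor that restores proteasome genes, rose 1.62-fold, and PSMA2, a core subunit, was at -0.31 ± 0.06.

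Most immediate early and inflammatory genes rose, and the interferon genes lay nearer to all genes tested. The immediate early list had 18 of 24 genes higher, 2 lower and 4 without a call (median 1.04). FOS had 15.1, 12.7 and 14.7 CPM in COM libraries and 1.03, 0.973 and 1.06 CPM in BLANK libraries, 13.7-fold higher (log2 3.78 ± 0.16). ZFP36, which destabilises cytokine mRNA, rose 6.64-fold, the phosphatase DUSP1 4.06-fold and JUNB 2.57-fold. MYC, the growth regulator, was 1.67-fold lower, with 498, 513 and 501 CPM in COM and 861, 802 and 857 CPM in BLANK; the other fall was the phosphatase DUSP6 (-0.48), named after its value was seen. Of 16 inflammatory chemokines and cytokines 11 rose, 2 fell and 3 did not pass (median 0.72). CXCL8, the neutrophil chemokine, rose 6.46-fold and the cytokine IL11 5.81-fold, while the related chemokine CXCL1 was lower by a log2 change of -0.67 ± 0.05. Of 25 interferon response genes 8 rose, 3 fell and 14 did not pass (median 0.19). That is 32.0% higher, near the 25.1% over all genes tested, and 12% lower, below the 24.5% over all genes tested. Over protein-coding genes 25.4% were higher and 33.5% lower. With thinned counts 5 of the interferon genes were lower. ISG15, a ubiquitin-like tag, was at -0.80 ± 0.09 and the factor STAT2 at 0.40 ± 0.06.

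Nearly all genes of mitosis fell, and most cyclins and cell cycle kinases with them. Of 34 genes of mitotic kinesins and spindle 32 fell, 0 rose and 2 did not pass (median -0.56). DESeq2 also called none higher, and the RefSeq transcripts alone called 1. MKI67, the marker of cycling cells (chromosome 10, 128096659 to 128126423), had 253, 251 and 264 CPM in COM libraries and 617, 588 and 589 CPM in BLANK libraries, 2.34-fold lower (log2 -1.23 ± 0.03, adjusted p = 2.07e-27). CENPF, a kinetochore protein, was lower by a log2 change of -1.26 ± 0.03, the kinesin KIF20A by -1.01 ± 0.04 and the topoisomerase TOP2A by -0.87 ± 0.03. The 2 that did not pass, named after their values were seen, were the checkpoint kinase TTK (0.04) and the kinesin KIF18A (0.15). In the list of cyclins, kinases and cell cycle factors 18 of 27 fell, 6 rose and 3 did not pass (median -0.36). The mitotic cyclin CCNB1 was 1.73-fold lower and CCND1, the cyclin of early G1, 1.41-fold lower. The largest rise of that list was of CDKN1A, the gene of the cyclin kinase inhibitor p21, with 70.3, 72.7 and 69.8 CPM in COM and 9.08, 9.60 and 8.5 CPM in BLANK (7.83-fold higher), followed by CDKN2B, the gene of the inhibitor p15, 2.41-fold higher.

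Most genes of DNA replication fell too. Of 36 genes of DNA replication and nucleotide supply 33 fell, 2 rose and 1 did not pass (median -0.41). MCM7, a subunit of the replicative helicase (chromosome 7, 100092728 to 100101397), had 126, 120 and 116 CPM in COM libraries and 276, 293 and 291 CPM in BLANK libraries, 2.37-fold lower. Its partners MCM5, MCM6 and MCM4 were lower by log2 changes of -0.97 ± 0.04, -0.83 ± 0.04 and -0.67 ± 0.03, and PCNA, the sliding clamp, by -0.55 ± 0.04. CDC6 (0.22) and ORC6 (0.19), which load the helicase, were the 2 that rose, named after their values were seen; 1 of them was called with no filter on low counts, with thinned counts or without COM replicate 1. Of 18 genes of homologous recombination and Fanconi repair 11 fell, 1 rose and 6 did not pass (median -0.22), with XRCC3 at -0.51 ± 0.04 and FANCA at -0.40 ± 0.04. The 1 that rose was BRCA1 (0.18), named after its value was seen, and DESeq2, the fit with no filter, and the fits without COM replicate 3 or BLANK replicate 3 called none.

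All 20 tested replication-dependent histone genes fell, with a median log2 change of -0.87. H1-3, a linker histone, had 88.5, 85.4 and 86.2 CPM in COM libraries and 232, 264 and 261 CPM in BLANK libraries, 2.91-fold lower. H2AC13 had 78.0, 76.7 and 77.2 CPM in COM and 184, 189 and 192 CPM in BLANK, 2.43-fold lower, and H2AC6, H2BC17, H2AC11 and H3C4 were lower by log2 changes of -0.98 to -0.96. These mRNAs end in a stem-loop and lack a poly(A) tail, and the labels do not say how the mRNA kit selected RNA, so their counts may be a part of the histone mRNA present. Near-identical coding regions make the split among family members uncertain.

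One promoter each is printed for the mitotic, replication and histone groups, because each holds the element that is common in its group. MKI67 is shown with its 2 matches to the CHR element TTTGAA, MCM7 with its 2 matches to the E2F element (TTTGGCGC, TTTCCCGC or TTTCGCGC) and H2AC13 with its 4 CCAAT boxes, all searched on either strand and in capitals.
MKI67 (chr10:128126374-128126673, minus strand): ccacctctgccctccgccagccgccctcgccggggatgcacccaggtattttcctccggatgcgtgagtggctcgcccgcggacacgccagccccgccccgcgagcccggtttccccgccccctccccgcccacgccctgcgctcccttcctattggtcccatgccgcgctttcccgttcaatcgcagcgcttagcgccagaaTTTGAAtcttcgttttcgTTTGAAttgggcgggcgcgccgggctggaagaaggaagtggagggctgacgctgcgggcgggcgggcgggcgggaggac
MCM7 (chr7:100101348-100101647, minus strand): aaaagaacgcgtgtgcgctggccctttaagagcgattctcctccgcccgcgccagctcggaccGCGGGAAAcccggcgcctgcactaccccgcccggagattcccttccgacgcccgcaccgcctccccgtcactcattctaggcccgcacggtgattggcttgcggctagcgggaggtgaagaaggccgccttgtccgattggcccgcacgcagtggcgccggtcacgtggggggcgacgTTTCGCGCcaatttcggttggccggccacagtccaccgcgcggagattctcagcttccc
H2AC13 (chr6:27807923-27808222, plus strand): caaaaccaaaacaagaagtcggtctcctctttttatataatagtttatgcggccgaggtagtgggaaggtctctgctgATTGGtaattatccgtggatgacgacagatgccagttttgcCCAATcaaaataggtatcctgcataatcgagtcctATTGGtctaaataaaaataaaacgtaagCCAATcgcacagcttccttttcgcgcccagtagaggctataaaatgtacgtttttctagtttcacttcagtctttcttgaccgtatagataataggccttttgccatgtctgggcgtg

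The CHR element was present in 83.9% of 31 promoters of the mitotic list, against 15.4% of all promoters. The E2F element was present in 56.2% of 32 promoters of the replication list, against 2.79% of all. CCAAT was present in 89.5% of 19 histone promoters and TATAAA in 73.7%, against 35.7% and 12% of all. Of the 15 largest rises by rule 11 have a promoter entry, and 36.4% of these hold an ATF4 element. Among 439 promoters of protein-coding genes at least 2-fold higher the share was 3.64%. It was 3.67% over all promoters and 1.79% over the 10744 promoters of protein-coding genes tested. Of the 15 largest falls 10 have a promoter entry, and 70.0% of these hold CCAAT. ATF4 elements were in 27.8% of 18 amino acid promoters and 13.3% of 15 ATF4 list promoters, against 3.67% of all, and heat shock elements in 23.5% of 17 heat shock promoters, against 0.487%. The antioxidant element was in 27.3% of 11 thioredoxin and NADPH promoters but in 7.14% of 14 promoters of the NQO1 list, against 13.6% of all. Among the 12953 promoters of genes tested the shares were 10.9% for CHR, 4.29% for E2F, 36.5% for CCAAT, 6.90% for TATAAA, 2.08% for ATF4, 0.394% for heat shock, 14.9% for antioxidant and 37.4% for metal elements. HMOX1, SLC7A11 and MCM5 are among the named genes that have no entry in the promoter table. These are matches of letters in a window of 300 bases; the motifs can overlap each other, and a match is neither a bound site nor a cause.

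**Figure D3:**
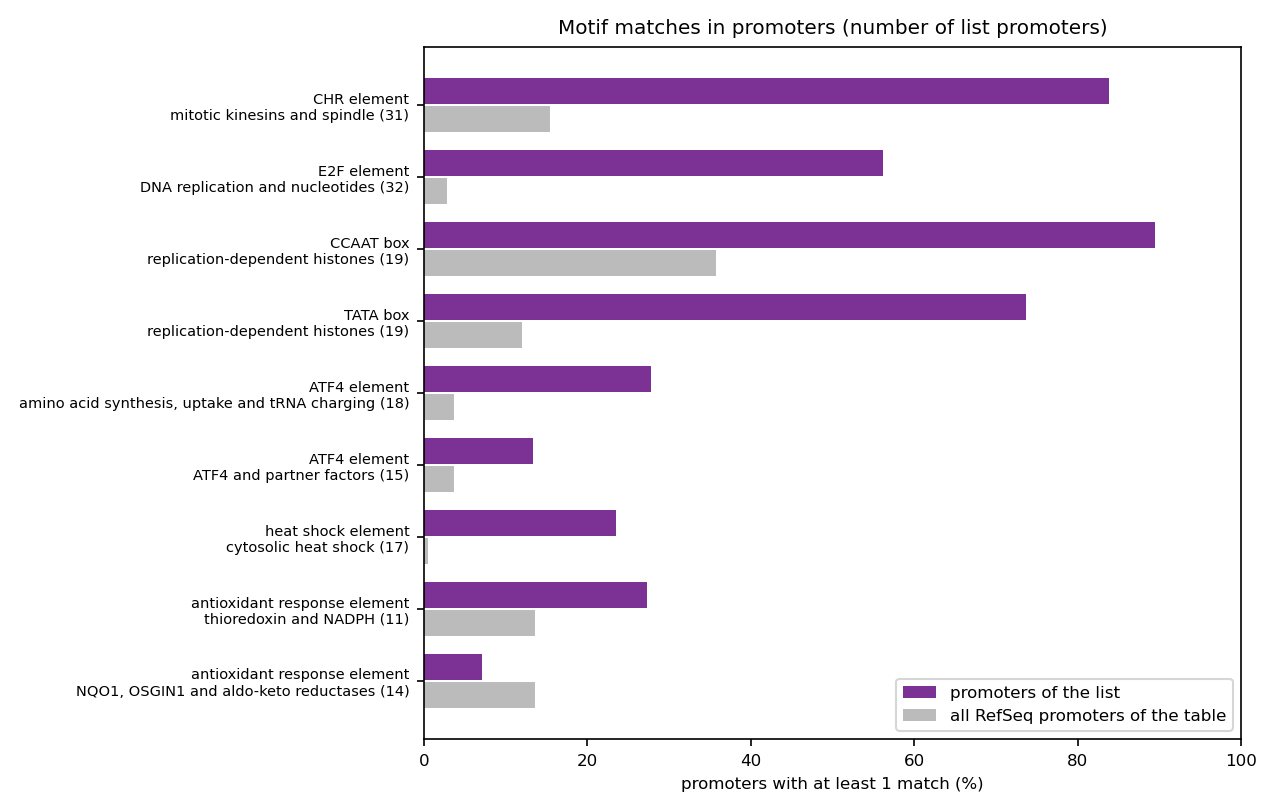
Share of promoters with at least 1 match to a motif (horizontal axis, percent), for a gene list (purple) and for all 27305 promoters of the table (grey), with the number of list promoters in brackets. The CHR, E2F, CCAAT and TATA bars of the cell division and histone lists stand furthest from their grey bars, and the antioxidant bar of the NQO1 list is shorter than its grey bar.

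Genes of cell death were near all genes tested in their shares of calls, and more of the p53 targets rose than fell. Of 22 genes of the BCL2 family and death receptors 8 rose, 5 fell and 9 did not pass (median 0.04). That is 36.4% higher and 22.7% lower, against 25.1% and 24.5% over all genes tested. Over protein-coding genes the shares were 25.4% higher and 33.5% lower. BMF, a pro-apoptotic member released from the cytoskeleton, had 7.48, 9.60 and 9.38 CPM in COM libraries and 1.30, 1.81 and 1.99 CPM in BLANK libraries, 5.16-fold higher. PMAIP1, the gene of the pro-apoptotic protein NOXA, rose 2.92-fold, the death receptor gene TNFRSF10B 1.57-fold and BCL2L1, whose main product BCL-XL blocks death, 1.44-fold. The list of p53 targets had 11 of 20 genes higher, 2 lower and 7 without a call (median 0.23). The 4 with the smallest p, SESN2, CDKN1A, PMAIP1 and TNFRSF10B, are also known to be raised without p53, which PC3 lacks.

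Metabolic and ribosomal genes fell by small factors. Of 32 genes of sterol and fatty acid synthesis 20 fell, 2 rose and 10 did not pass (median -0.24). With DESeq2 or without COM replicate 1 only 1 was called higher. FASN, fatty acid synthase, had 530, 533 and 525 CPM in COM and 988, 1035 and 1043 CPM in BLANK, 1.93-fold lower. SCD, the stearoyl desaturase, was 1.65-fold lower, ACACA, which starts fatty acid synthesis, 1.6-fold and the factor SREBF1 1.58-fold. Of 36 nuclear-encoded respiratory chain genes 30 fell, 0 rose and 6 did not pass (median -0.27), and DESeq2 also called none higher. CYC1, cytochrome c1, was 1.38-fold lower and ATP5F1A, an ATP synthase subunit, 1.40-fold. Of 28 mitochondrial ribosomal protein genes 24 fell, 2 rose and 2 did not pass (median -0.29). MRPL12 was at -0.59 ± 0.04. The 2 that rose, named after their values were seen, were MRPL10 (0.12) and MRPS10 (0.13), and DESeq2 called neither. Without COM replicate 2 or COM replicate 3 none of the 28 was called higher, and without BLANK replicate 1 or BLANK replicate 2 only 1 was. Of 37 cytosolic ribosomal protein genes, uncertain because of processed copies, 23 fell, 0 rose and 14 did not pass (median -0.18), with RPL4 at -0.24 ± 0.03. The glycolysis and hypoxia list was mixed, 16 higher, 11 lower and 1 not passing of 28. Its shares were 57.1% higher and 39.3% lower, against 25.1% and 24.5% over all genes tested and 25.4% and 33.5% over protein-coding genes. NDRG1, a hypoxia-responsive gene, was 2.36-fold higher and the vasoactive peptide gene ADM 1.97-fold higher.

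**Figure D4:**
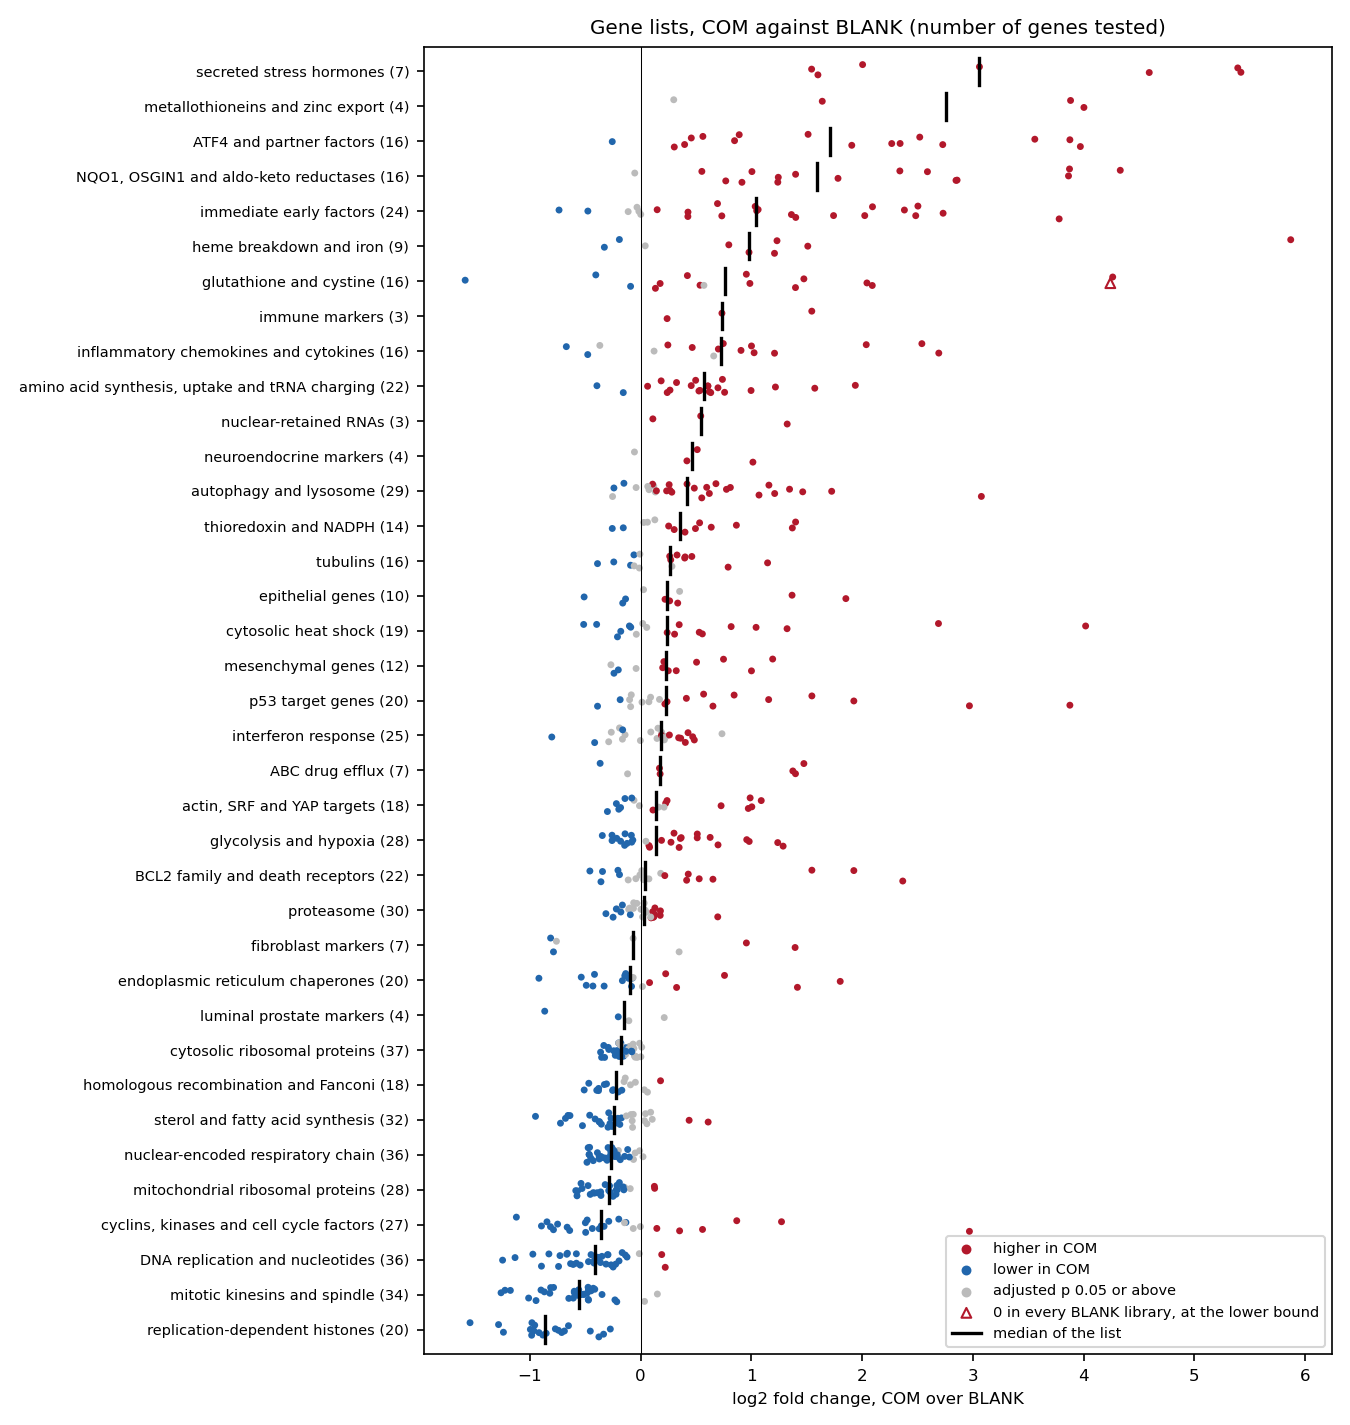
Log2 fold change of COM over BLANK (horizontal axis) for every tested gene of 37 lists, 1 row per list with its number of tested genes, ordered by the list's median (black bar). Red points are called higher, blue points called lower and grey points neither, and the open triangle is GPX2 at its lower bound; the medians of the histone, mitotic and replication rows lie left of 0 and those of the hormone, metallothionein and ATF4 rows right of it.

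The cytoskeleton, efflux pumps and cell identity genes changed unevenly. The 16 tubulin genes, close paralogs and so uncertain, had 8 higher, 4 lower and 4 without a call (median 0.27). Without BLANK replicate 1 or COM replicate 1, 2 fell. TUBA1A, an alpha-tubulin, had 73.4, 81.2 and 79.0 CPM in COM and 35.4, 34.5 and 35.7 CPM in BLANK, 2.21-fold higher, while TUBB4B, an abundant beta-tubulin, was 1.18-fold lower and STMN1, which destabilises microtubules, 1.31-fold lower. TUBB3, the beta-tubulin most linked to taxane resistance, rose 1.20-fold. The ABC efflux list had 5 of 7 genes higher, 1 lower and 1 without a call, with the conjugate transporters ABCC3 and ABCC2 rising 2.78-fold and 2.63-fold and ABCC4 1.29-fold lower. Of 10 epithelial genes 5 rose, 3 fell and 2 had no call, with the splicing factor ESRP1 at 1.85 ± 0.15 and the keratin KRT8 at 0.22 ± 0.04. Of 12 mesenchymal genes 8 rose, 2 fell and 2 had no call, with the repressor SNAI1 at 1.0 ± 0.09. Genes of both kinds rose and genes of both kinds fell. In sum the 15 mesenchymal genes of the table were at 2490 to 2510 CPM in COM and 2550 to 2600 CPM in BLANK. Of 18 targets of actin, SRF and YAP 8 rose, 6 fell and 4 did not pass. That is 44.4% higher and 33.3% lower, against 25.1% and 24.5% over all genes tested. Over protein-coding genes 25.4% were higher and 33.5% lower, the latter near the share of these targets. AJUBA was at 1.0 ± 0.04 and FLNA, an actin crosslinker, at -0.30 ± 0.03.

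Luminal prostate markers were lower in sum in COM, and the fibroblast, immune and neuroendocrine markers summed to less than the epithelial genes. Of 12 luminal prostate markers 9 are in the table and 4 were tested, with 0 higher, 2 lower and 2 not passing. The sum of the 9 was 230 to 249 CPM in COM and 404 to 408 CPM in BLANK. Most of it was HOXB13, the homeobox factor of prostate, with 196, 205 and 212 CPM in COM libraries and 373, 370 and 373 CPM in BLANK libraries, 1.82-fold lower (log2 -0.87 ± 0.03). The other luminal marker called lower, SLC45A3, lost its call with limma-trend and without BLANK replicate 2 or 3 or COM replicate 1. STEAP2 was called higher with RefSeq transcripts, with a filter of 1 CPM, and without AgNPs replicate 3, BLANK replicate 1 or DOC replicate 1. Epithelial genes summed to 683 to 712 CPM in COM and 639 to 672 CPM in BLANK. Of 10 fibroblast markers 7 were tested, 2 higher and 2 lower (28.6% each, against 25.1% and 24.5% over all genes tested). The 10 markers summed to 85.9 to 94.5 CPM in COM and 118 to 131 CPM in BLANK, most of it COL1A2. Only 1 was called higher with RefSeq transcripts or limma-trend, or without any 1 AgNPs library, BLANK replicate 1 or 3, or COM replicate 1 or 3. Of 12 immune markers 7 are in the table and 3 were tested, all higher, and they summed to 50 to 57.4 CPM in COM and 41.4 to 45.5 CPM in BLANK, most of it the lysosomal protein gene CD68, which many cells express. With counts thinned 1 of those 3 was called. LYZ also lost its call with DESeq2, with no filter on low counts, and without BLANK replicate 1 or 2 or COM replicate 2. CD14 lost its call without COM replicate 3. Of the 7 immune markers 1 had no count in any COM library and 2 had none in any BLANK library. Of the 9 luminal markers 3 had none in COM and 4 none in BLANK, and of the 10 fibroblast markers 0 had none in COM and 2 none in BLANK. Neuroendocrine markers, 4 tested and 3 higher, summed to 72.9 to 78.0 CPM in COM and 53 to 54.6 CPM in BLANK, most of it ENO2 and SYT1. SYP of this list lost its call with DESeq2, with no filter on low counts, and without BLANK replicate 2 or 3 or any 1 COM library. SYT1 lost its call with limma-trend.

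Beyond the lists, HTRA3, a secreted serine protease (chromosome 4, 8269754 to 8307098), had the highest fitted fold change of the genes that could be named by rule. It had 42.1, 42.7 and 43.0 CPM in COM libraries and 0.180, 0.265 and 0.398 CPM in BLANK libraries, 147-fold higher (log2 7.20 ± 0.14, adjusted p = 2.96e-31), from a level near the floor. The pseudogene NMRAL2P rose 31.8-fold and S100P, a calcium-binding protein, 30.3-fold, with 14.5, 11.9 and 13.4 CPM in COM and 0.449, 0.398 and 0.443 CPM in BLANK. Among the 15 largest falls by the same rule PIF1, a DNA helicase of telomeres and forks, was first, with 3.97, 3.53 and 3.37 CPM in COM and 11.1, 13.1 and 13.8 CPM in BLANK (log2 -1.80 ± 0.13). GPX1 and the histones H1-3, H3C13, H2AC4 and H2AC13 were among them. MAP2K6, a kinase of the p38 pathway, was at -1.46 ± 0.10, the centrosomal gene LRRC45 at -1.32 ± 0.08, HAGHL at -1.31 ± 0.09, C1QTNF8 at -1.67 ± 0.18, GLB1L2 at -1.63 ± 0.26, MYL10 at -1.53 ± 0.20, STARD8 at -1.45 ± 0.17, the thyroid hormone carrier SLCO1C1 at -1.41 ± 0.19 and the sodium channel subunit SCNN1G at -1.35 ± 0.23. All 15 falls passed with the same sign in every alternative run. Those runs use the libraries in which the genes were picked, so they are no independent test. With limma-trend, a scale that shrinks low genes, SLCO1C1 was at -0.26, SCNN1G at -0.49, GLB1L2 at -0.60, STARD8 at -0.63 and C1QTNF8 at -0.82.

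Set directly against each single treatment, COM differed from AgNPs in 4369 genes (21.9% of those tested), 1973 higher (9.87%) and 2396 lower (12%), and from DOC in 7317 (36.6%), 3615 higher (18.1%) and 3702 lower (18.5%). With DESeq2, 1279 genes were higher in COM than in AgNPs. Higher in COM than in BLANK, AgNPs and DOC were 1333 genes (6.67%), and lower than in all 3 were 1742 (8.72%). Of the 9917 genes called against BLANK, 2443 differed from neither single treatment. On the first principal component, with 38.3% of the variance, COM libraries lay at -41.1 to -39.2, AgNPs at -13.9 to -12.6, DOC at 17.6 to 19.6 and BLANK at 34.4 to 35.0. The COM, AgNPs and DOC changes share the 3 BLANK libraries, so values against BLANK are given side by side and not related to each other.

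The lists differed in how much of their change was above the silver response alone. The metallothioneins were near their level with silver alone, MT2A at 3.88 ± 0.07 in COM and 3.79 in AgNPs, and COM minus AgNPs at 0.09 ± 0.06 (adjusted p = 0.322; 0.0377 without BLANK replicate 1). MT1X was higher in COM than in AgNPs by 0.13 ± 0.04 (adjusted p = 0.0111). That call was lost with limma-trend (adjusted p = 0.282) and without AgNPs replicate 2 or 3 or COM replicate 2 or 3 (edgeR adjusted p = 0.0652 to 0.104). HMOX1 was higher by 0.53 ± 0.03, and GDF15 by 0.62 ± 0.03. All 7 secreted stress hormones were higher in COM than in all 3 other groups, and so were 13 of 16 NQO1 list genes, 11 of 16 ATF4 list genes and 14 of 24 immediate early genes, against 6.67% of all genes tested. ATF3 was higher in COM than in AgNPs by 0.98 ± 0.05 and than in DOC by 2.84 ± 0.06, and CHAC1 by 0.98 ± 0.07 and 3.62 ± 0.09. BMF had 7.48, 9.60 and 9.38 CPM in COM, 4.20, 4.86 and 4.13 in AgNPs, 4.41, 4.36 and 4.54 in DOC and 1.30, 1.81 and 1.99 in BLANK. It was higher in COM than in AgNPs by 1.0 ± 0.15 and than in DOC by 0.99 ± 0.14, with no overlap of libraries. TUBA1A was higher in COM than in AgNPs by 0.75 ± 0.05 and than in DOC by 0.57 ± 0.05.

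Among falling genes 19 of 20 histones, 22 of 36 replication genes, 16 of 34 mitotic genes and 14 of 28 mitochondrial ribosomal genes were lower in COM than in all 3 other groups, against 8.72% of all genes tested. H1-3 had 88.5, 85.4 and 86.2 CPM in COM, 174, 171 and 167 in AgNPs, 205, 147 and 149 in DOC and 232, 264 and 261 in BLANK. DOC replicate 1 stood above the other 2 DOC libraries, and COM lay below every other library. H1-3 was lower in COM than in AgNPs by a log2 change of -0.98 ± 0.14 and than in DOC by -0.94 ± 0.14. HOXB13 was lower than in AgNPs by -0.54 ± 0.03 and than in DOC by -0.58 ± 0.03. GPX1 was close to its level in AgNPs, 77.3, 78.8 and 77.8 CPM there, with a difference of -0.13 ± 0.04 (adjusted p = 0.0194). That call was lost with thinned counts, with RefSeq transcripts, and without AgNPs replicate 2 or COM replicate 1 (edgeR adjusted p = 0.0573 to 0.0871). Against DOC the difference was -1.45 ± 0.04. HSPA6 did not differ between COM and AgNPs by the test (-0.25 ± 0.13, adjusted p = 0.182). The genes that differed most between COM and AgNPs by rule were, higher in COM, CMYA5 (1.33 ± 0.23), the nuclear receptor NR4A2 (1.29 ± 0.24), the pseudogene SDAD1P1 (1.18 ± 0.21), the carboxypeptidase CPA4 (1.14 ± 0.19) and BMF, and, lower in COM, GLB1L2 (-1.25 ± 0.28), ACTL10 (-1.01 ± 0.27), H1-3, GPR85 (-0.97 ± 0.26) and the pseudogene BMS1P1 (-0.88 ± 0.26). GLB1L2 had 0.361, 1.358 and 1.275 CPM in COM, the first near the floor of 3 counts, and 2.47, 2.43 and 2.22 CPM in AgNPs. With limma-trend its difference was -0.42. GPR85 lost its call without COM replicate 2 (-0.72, edgeR adjusted p = 0.0587). BMS1P1 lost it with RefSeq transcripts (-0.36, edgeR adjusted p = 0.563) and without AgNPs replicate 2 or COM replicate 3 (0.0761 and 0.103).

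**Figure D5:**
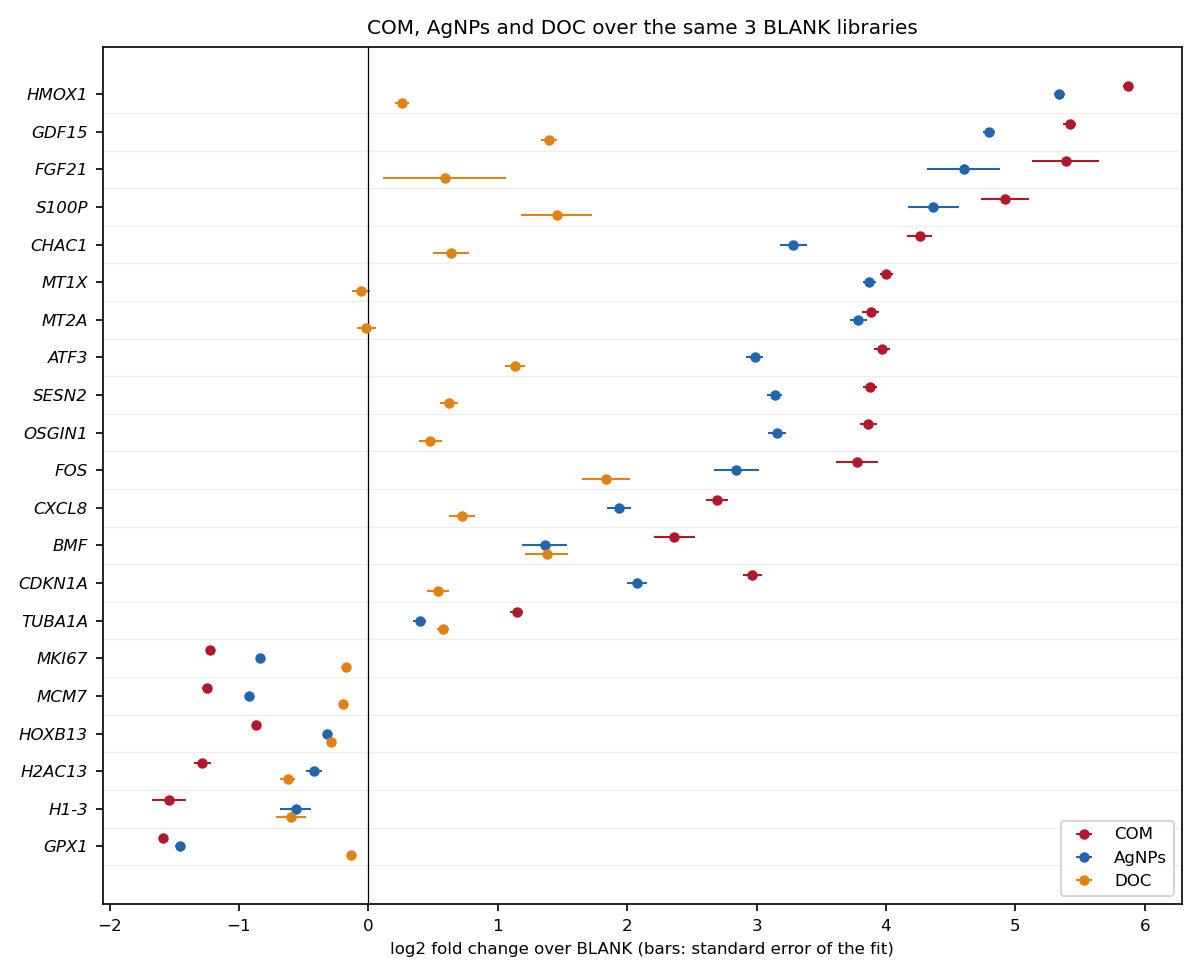
Log2 fold change over BLANK (horizontal axis, bars are standard errors of the fit) of COM in red, AgNPs in blue and DOC in orange for 21 genes, all over the same 3 BLANK libraries. COM lies beyond both single treatments for HMOX1, GDF15, ATF3, BMF and H1-3, and beside AgNPs for MT1X, MT2A and GPX1.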

How the data were processed

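Total RNA of PC3 cells was extracted with TRIzol and made into mRNA libraries with a BGI kit, per the labels' protocols. The submitters' processing notes name HISAT2, Bowtie2 2.2.5, RSEM and the build GRCh38, without their roles. The authors deposited 1 table of 221796 transcript rows, 177700 linear and 44096 circular, with an expected count and an FPKM value per library. Its 10 columns of group means stayed out of every step. Expected counts of linear rows were summed by gene, rounded to whole numbers and given symbols from the table or RefSeq (27214 of 43613 genes). The linear counts summed to 10996446 to 11069928 in COM, 13049868 to 13362290 in AgNPs, 18603100 to 19421873 in DOC and 22573481 to 22769479 in BLANK libraries, and these totals limit the precision of low genes.

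All 12 libraries entered 1 edgeR 4.0.16 quasi-likelihood fit (R 4.3.3, TMM, filterByExpr, robust). It had contrasts of COM against each other group and Benjamini-Hochberg adjustment over the 19986 genes tested. The fit was also run on simulated counts, without the filter and with few genes changed, evenly up and down. Such counts do not test it under changes as broad as those seen here. No 2 libraries of a group agreed within sampling noise. A floor of 3 counts per library was used for genes without counts and covers counting error only. Alternatives were RLE factors, DESeq2 1.42.0, a filter of 1 CPM in at least 3 libraries, no filter, only the libraries compared, a replicate block, thinned counts, RefSeq transcripts only, limma 3.58.1 with trend on log2(FPKM + 1), and leaving out each library; leaving out AgNPs and DOC libraries was added after seeing the data. Named genes were the 15 largest changes each way against BLANK (called, average log2 CPM of at least 1, a gene symbol, most counts on RefSeq transcripts, groups not overlapping), up to 5 each way against AgNPs and against DOC by the same criteria, the 4 genes of smallest p in each of 37 lists, and a fixed set. Genes and lists were chosen with earlier results of these data known. Motif shares by list were added to those of the largest changes.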

Additional observations from a re-analysis of the deposited data

How the results depend on the processing

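No named gene called in a comparison changed sign under any alternative run, but 9 lost a call against BLANK in at least 1 setting, 20 against AgNPs and 7 against DOC. The balance of calls against BLANK did turn: 5024 higher and 4893 lower as reported, against 3906 and 4481 with DESeq2, 4800 and 5107 with RLE factors, 4486 and 5472 with no filter, 4826 and 5258 with only the 2 groups, 4256 and 4705 with thinned counts, and 3822 and 4156 with RefSeq transcripts. It also turned without BLANK replicate 1, COM replicate 2, COM replicate 3 or DOC replicate 3, and was even with a filter of 1 CPM; the cause was not tested. The median log2 change over all genes was 0.03 as reported and -0.02 with no filter, and the proteasome list turned to 3 higher and 11 lower there. The number of genes changed against BLANK was 9917 as reported and 7978 to 10084 under the other settings, with 8947 to 10260 when 1 library was left out. The count of genes at least 2-fold changed was 1263, and it was 812 with RefSeq transcripts only (714 higher, 98 lower) and 287 with limma-trend on log2(FPKM + 1) (253 higher, 34 lower). That scale adds 1 to each value and so shrinks low genes; for RefSeq transcripts the cause was not tested. Genes higher in COM than in AgNPs were 1279 with DESeq2, against 1973; the cause was not tested. Leaving out 1 library gave 1221 to 1484 genes at least 2-fold changed, 1069 to 1322 higher and 132 to 185 lower. With a replicate block 9812 genes were called. Same-numbered COM and BLANK libraries had correlations of deviations of -0.118, -0.099 and 0.018. Those of COM and AgNPs were 0.101, 0.128 and 0.031, and those of COM and DOC 0.022, 0.037 and 0.129. Differently numbered COM and BLANK libraries reached 0.125, and whether the replicate numbers pair the libraries was not tested. HTRA3 was at 4.04 with limma-trend. Depth limits genes near 3 counts, among them FGF21 and HTRA3 in BLANK.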
